A study of Danio rerio with 6 samples.

Results

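In all, 10 genes for troponins and tropomyosins were followed in zebrafish hearts regenerating with and without extra tbx20, chosen by symbol among the 31701 genes of the count table: tnnt2a, tnnt2c, tnnt2d, tnnt2e, tnnc1a, tnnc1b, tnni1b, tnni1c, tpm4a and tpm1. All 10 were found in the table, where tpm1 is spelled TPM1. RNA-seq was performed on the apical part of adult ventricles of the AB strain at 7 days post amputation (dpa), after daily incubation of all fish with doxycycline (DOX) from the day before injury. Control fish carried the TRE3G:tbx20 transgene alone, in which DOX cannot act without its activator. The tbx20-overexpressing fish carried it together with cmlc2:TetON-3G, which supplies the activator in cardiomyocytes, so that tbx20 was induced there. Both groups therefore carried the tbx20 transgene, with mCherry joined to tbx20 and a lens EGFP marker, and the driver line brought a lens mCherry marker that control fish lacked. Each group had 3 libraries, numbered 1 to 3, made from pools of 6, 8 and 8 hearts.

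Troponin and tropomyosin make the thin filament of striated muscle respond to calcium. Troponin C binds calcium, troponin I holds back the interaction of actin with myosin until calcium is bound, and troponin T ties the complex to tropomyosin, a coiled coil that lies along the actin filament. In zebrafish, tnnt2a is the gene of the silent heart mutant, tnnc1a is needed for contraction of the embryonic ventricle, and tpm4a is needed for the embryonic heartbeat.

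The genes tpm4a, tnnc1a, tnnt2a and tnni1b supplied nearly all of the transcripts of the 10. By FPKM, a value scaled to the exonic length and the library total, tpm4a ranked between 16 and 22 of all genes over the 6 libraries, tnnc1a between 16 and 25, tnnt2a between 21 and 25, and tnni1b between 106 and 136. The next in order were tnnc1b, which ranked between 953 and 2668, and tpm1, between 2399 and 4794. The genes tnni1c, tnnt2c, tnnt2d and tnnt2e stayed at or under 3.24 FPKM in every library. The FPKM of tpm4a, tnnc1a and tnnt2a overlapped between these genes in each group, and tnni1b lay below all 3 in every library. All 10 genes together took 1.58%, 2.07% and 1.78% of the counts in control libraries and 1.60%, 1.49% and 1.26% in the tbx20-overexpressing libraries. Reads of near-identical copies can be split between paralogues, and how reads with several matches were counted is not given in the sources used here, so the low values of tnnt2c, tnnt2d, tnnt2e and tnni1c beside their abundant relatives are uncertain.

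**Figure D1:**
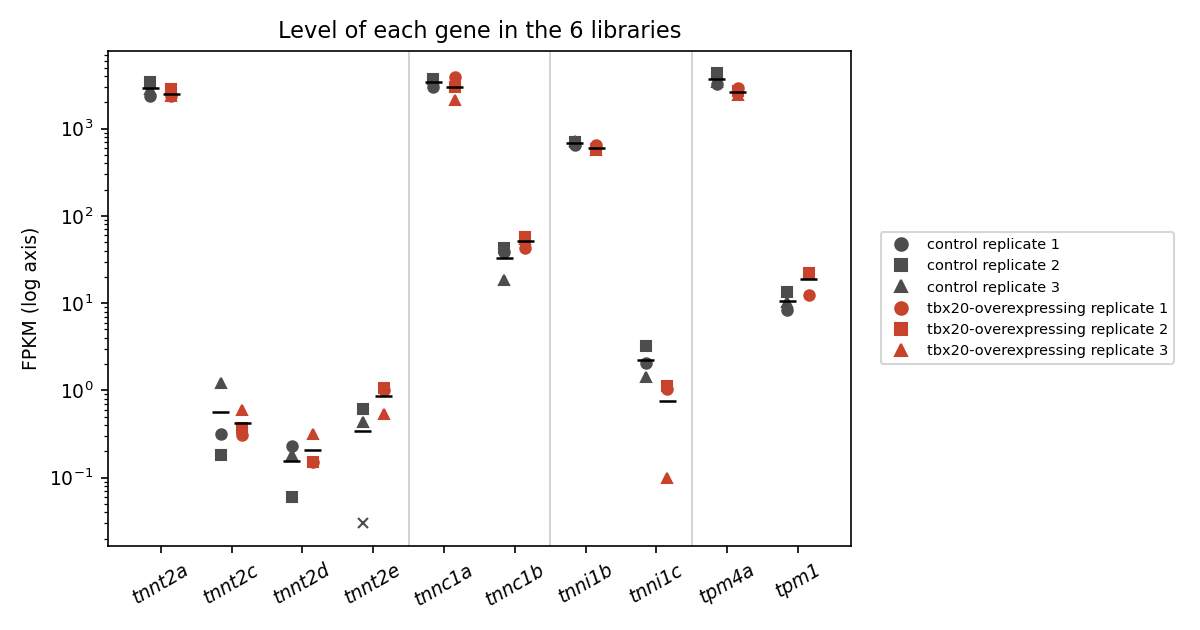
FPKM of the 10 genes in each library on a log axis, with control libraries in grey, tbx20-overexpressing libraries in red, black lines for group means and a cross at 0.03 for the listed 0 of tnnt2e in control library 1. The genes tnnt2a, tnnc1a and tpm4a lie at 2131 FPKM or more in all 6 libraries, tnni1b lies between 564 and 722, and tnnt2d stays at or under 0.32.

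The libraries differed in composition. Total counts ranged from 13218054 to 17754483 in control and lay between 12993988 and 14002211 in those with tbx20 overexpression, and the 13 mitochondrially encoded genes took 16.3% to 20.9% and 11.1% to 15.01% of them. The factors of the trimmed mean of M-values (TMM) scaling ran from 0.748 to 1.01 in control and between 1.02 and 1.31 in those with tbx20 overexpression. FPKM carries no such factor, and scaling by total counts instead of TMM moved the median log2 fold change of all genes tested from 0.04 to 0.38. TMM-normalised counts of tbx20 itself, scaled to library size (CPM), were 41.3, 8.59 and 20.3 in control and 133, 19.0 and 37.2 in the tbx20-overexpressing libraries, higher within each of the 3 replicate pairs, while the groups overlapped. Its log2 fold change was 1.43 ± 0.75 (SE) with an adjusted p of 0.649 by edgeR's quasi-likelihood test, and 1.24 ± 0.19 (SE) with an adjusted p of 0.0479 when the replicate number was used as a block.

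The main question was whether the mRNA of these genes differed between tbx20-overexpressing and control apices. Of the 10 genes, 8 passed the filter on low counts and 2 were not tested, tnnt2c and tnnt2d. Of the 8, tpm4a and tnni1c fell, by the rule of p under 0.05 before adjustment with a log2 fold change beyond 0.5 in size, and none rose. This unadjusted rule called 8.83% of the 15686 genes tested, 5.56% lower and 3.27% higher. At an adjusted p under 0.05, edgeR called 0 of the 8 genes, of which 2 had a p under 0.05 before adjustment, and 0% of all genes, of which 9.23% had one. DESeq2 also called 0 of the 8 by its adjusted p, and 1.53% of all genes. Its unadjusted rule called 3 of the 8, against 9.26% of all genes. The median log2 fold change was -0.53 over the 8 genes and 0.04 over all genes tested. The number of members called was 0 without tbx20-overexpressing replicate 3, 1 without control replicate 1 or 2 or tbx20-overexpressing replicate 2, and up to 3 otherwise. Without control replicate 2 the only call was tpm1, higher at 0.76, and neither tpm4a nor tnni1c was called. With the replicate block 4 of the 8 genes were called, all lower, against 14.1% of all genes, with 8.06% lower and 6.05% higher. With total-count scaling the only call among them was tpm1, higher, against 13.4% of all genes, with 11.7% higher and 1.64% lower.

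**Figure D2:**
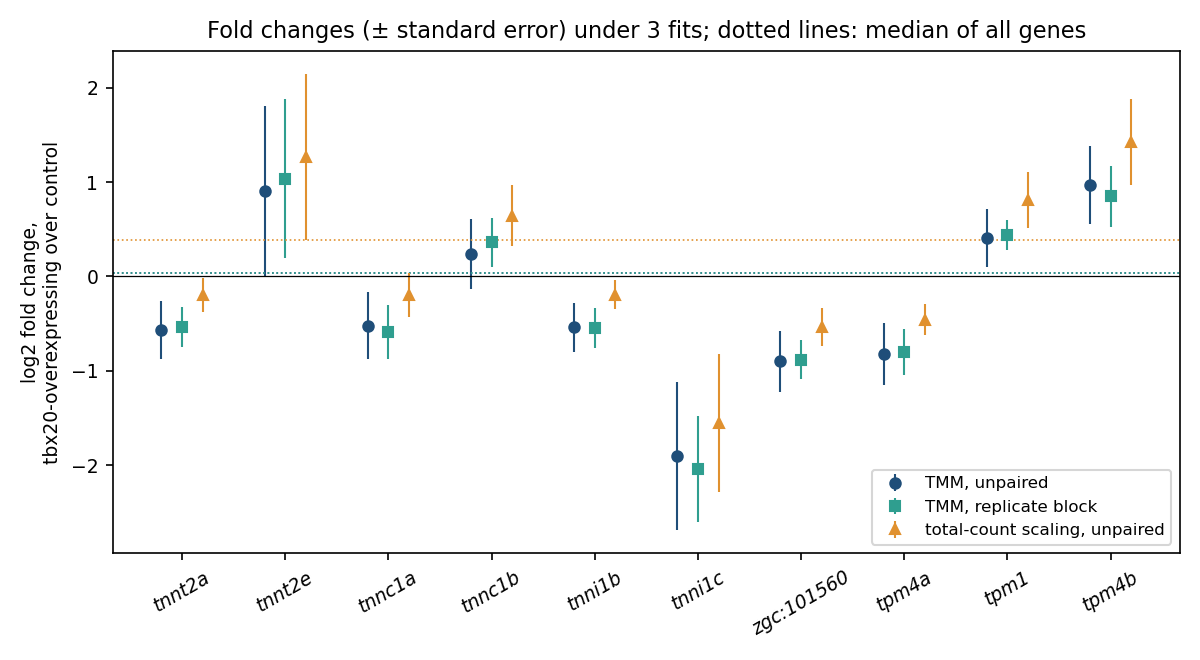
Log2 fold change, tbx20-overexpressing over control, of the 8 tested genes, zgc:101560 and tpm4b under TMM scaling, TMM with the replicate block and total-count scaling, with bars of 1 SE on either side and dotted lines at the median of all genes tested. The values of tpm4a are -0.82, -0.80 and -0.46 in that order, those of tnni1c stay at or below -1.55, and those of tpm1 are 0.41, 0.44 and 0.81.

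Troponin T was represented almost entirely by tnnt2a (ENSDARG00000020610). Its CPM was 3070, 5451 and 3306 in control libraries 1 to 3 and 2723, 3101 and 2141 in the tbx20-overexpressing libraries. It was lower within each pair, as for 18.8% of genes, with tbx20-overexpressing library 2 just above control library 1. On the FPKM scale the means were 2888 ± 535 and 2516 ± 270 (SD, n = 3 each). The log2 fold change was -0.57 ± 0.31 (SE), adjusted p = 0.670 (edgeR), with an exact permutation p of 0.2. With the replicate block it was -0.54 ± 0.21 (SE), adjusted p = 0.244, past the unadjusted rule, and the adjusted p lay between 0.244 and 0.946 over all alternatives. Without control replicate 2 the value was -0.27.

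The other 3 genes of troponin T held few reads. For tnnt2e the counts were 0, 19 and 13 in control and 24, 26 and 12 in the tbx20-overexpressing libraries. A count of 0 in control library 1 allows up to 0.130 FPKM, against 0.43 to 1.06 FPKM in the other 5 libraries. The groups of tnnt2e overlapped, with a log2 fold change of 0.90 ± 0.90 (SE), adjusted p = 0.869 (edgeR), which was 0.36 without control replicate 1 and 1.76 without control replicate 2. The ratio of tnnt2e to tnnt2a differed by 2.40 on the log2 scale, higher in 3 of 3 pairs, with an exact permutation p of 0.1 and 0.433 after adjustment over 13 ratios. It rests in part on the count of 0, to which 0.5 was added, and was 0.995 without control replicate 1. Counts of tnnt2c were 8, 6 and 40 in control and 8, 10 and 15 in the tbx20-overexpressing libraries, so control library 3 was the highest of the 6. Counts of tnnt2d lay between 1 and 4 in every library, and a difference was not detectable at this depth.

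Of the troponin C genes, tnnc1a (ENSDARG00000011400) was the abundant one. Its CPM was 3558, 5395 and 3974 in control and 4190, 3035 and 1779 in the tbx20-overexpressing libraries, higher in pair 1 and lower in pairs 2 and 3. Tbx20-overexpressing library 1 lay above control libraries 1 and 3, so the groups overlapped. The log2 fold change was -0.52 ± 0.35 (SE), adjusted p = 0.758 (edgeR), and it was -0.25 without tbx20-overexpressing replicate 3, -0.34 without control replicate 2 and -0.84 without tbx20-overexpressing replicate 1. The second gene, tnnc1b (ENSDARG00000037539), had a CPM of 36.3, 49.9 and 15.8 in control and 36.6, 47.0 and 36.3 in the tbx20-overexpressing libraries. Control library 3 stood low, and the other 5 values lay within one range. For tnnc1b the log2 fold change was 0.23 ± 0.37 (SE), adjusted p = 0.930 (edgeR), and it turned to -0.11 without control replicate 3.

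Of the troponin I genes, tnni1b (ENSDARG00000052708) had a CPM of 1885, 2519 and 1932 in control and 1736, 1455 and 1166 in the tbx20-overexpressing libraries. The groups did not overlap on this scale, with all 3 tbx20-overexpressing libraries lower. Such an order held for 8.27% of the genes tested and 32% of those with a mean CPM of at least 1000. On the FPKM scale, 642.62, 698.81 and 721.67 against 657.25, 581.06 and 564.04, library 1 of the tbx20-overexpressing group lay above control library 1. For tnni1b the log2 fold change was -0.54 ± 0.26 (SE), adjusted p = 0.600 (edgeR), with an exact permutation p of 0.1, the smallest that 3 against 3 allows. The replicate block gave -0.55 ± 0.21 (SE), adjusted p = 0.234, past the unadjusted rule, and the adjusted p lay between 0.234 and 0.896 over all alternatives.

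Expression of tnni1c (ENSDARG00000042559), a low-level troponin I gene, fell. It had 21, 44 and 19 counts in control and 11, 12 and 1 in the tbx20-overexpressing libraries, or 2.07, 3.24 and 1.43 against 1.05, 1.12 and 0.10 FPKM. All 3 tbx20-overexpressing libraries lay below all control libraries by FPKM, as for 2.95% of genes, and by CPM, as for 8.27%. Its log2 fold change was -1.90 ± 0.79 (SE), adjusted p = 0.510 (edgeR), with an exact permutation p of 0.1. The single count of tbx20-overexpressing library 3 has an exact 95% Poisson interval of 0.0253 to 5.57 counts, for counting error only. The call ended without that library (-1.35), without control replicate 1 (-1.998) and without control replicate 2 (-1.38). Total-count scaling gave -1.55, which also ended the call.

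Of the tropomyosins, tpm4a (ENSDARG00000023963) was the gene with the most counts of the 10 and fell. Its CPM was 8604, 14165 and 8413 in control and 7001, 6108 and 4520 in the tbx20-overexpressing libraries, means of 10394 ± 3267 and 5876 ± 1257 (SD, n = 3 each). Control library 2 was the highest, and all 3 tbx20-overexpressing libraries lay below all control libraries. So it was for 8.27% of the genes tested and 32% of those with a mean CPM of at least 1000. The same order without overlap was seen by FPKM, at 3222.1, 4317.0 and 3453 against 2913, 2680 and 2403. By FPKM this order held for 2.95% of genes, a share that was not counted among abundant genes alone. The log2 fold change of tpm4a was -0.82 ± 0.33 (SE), adjusted p = 0.483 (edgeR, 0.0775 to 0.798 over the alternatives), with an exact permutation p of 0.1. Over the 6 fits that each left out 1 library it ranged from -0.97 to -0.54 and stayed past the rule in 3. The call ended without control replicate 2 (-0.54), tbx20-overexpressing replicate 2 (-0.86) and tbx20-overexpressing replicate 3 (-0.66), and with total-count scaling, whose -0.46 was under the size required.

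The gene tpm1 (ENSDARG00000087402), whose mammalian counterpart encodes the main tropomyosin of the heart, had a CPM of 24.0, 47.3 and 26.7 in control and 31.8, 54.2 and 43.7 in the tbx20-overexpressing libraries. It was higher within each of the 3 pairs, as for 20.8% of genes, while control library 2 lay above 2 libraries of the other group. Its log2 fold change was 0.41 ± 0.31 (SE), adjusted p = 0.795 (edgeR), with an exact permutation p of 0.3. With total-count scaling it was 0.81, past the unadjusted rule. Over the fits without 1 library it ranged from 0.21 without tbx20-overexpressing replicate 2, 0.24 without control replicate 1 and 0.29 without control replicate 3 to 0.76 without control replicate 2, the last past the rule.

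Lower values were common among abundant genes. Of the 100 genes with a mean CPM of at least 1000, which include tnnt2a, tnnc1a, tnni1b and tpm4a and were set apart after their values were seen, 85% had a log2 fold change below 0, 28% were called lower and 32% had groups that did not overlap, lower. In the mean-centred log2 CPM over the 6 libraries, these 4 genes differed from each other by a root mean square of 0.17 to 0.28, all highest in control library 2 and lowest in tbx20-overexpressing library 3. The distance of tpm1 from tpm4a was 0.71. This likeness is a description over 6 libraries that share their scaling factors.

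**Figure D3:**
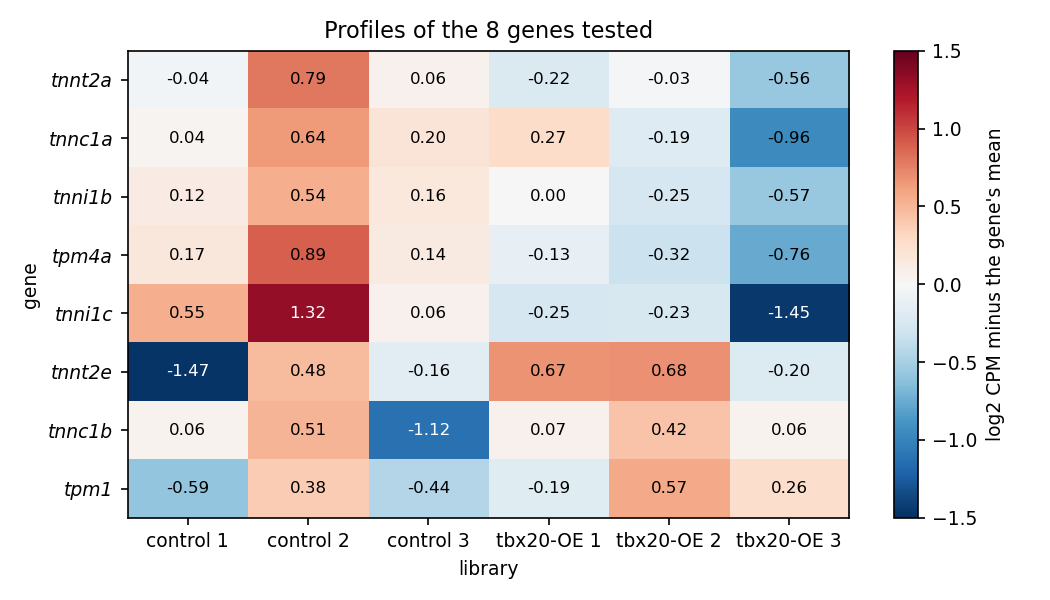
Mean-centred log2 CPM of the 8 tested genes in the 6 libraries, where red cells are above and blue cells below the mean of the gene. Control library 2 holds the highest cell of tnnt2a (0.79), tnnc1a (0.64), tnni1b (0.54) and tpm4a (0.89), and tbx20-overexpressing library 3 holds their lowest cells (-0.56, -0.96, -0.57 and -0.76).

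The profiles of all genes tested were compared with those of tpm4a and tnnt2a. Nearest to tpm4a were atp5f1, a subunit of ATP synthase, at a root mean square difference of 0.034, then ndufa5 and ndufb11 of respiratory complex I, fh, the fumarase of the tricarboxylic acid cycle, and chchd10, at 0.045 to 0.059. The median over 15685 genes was 0.607. Nearest to tnnt2a were mrps34 at 0.056, mtch2, mrpl30, bola3 and dio1, the last at 0.078, against a median of 0.518. Of these, mrps34 and mrpl30 encode proteins of the mitochondrial ribosome and dio1 a deiodinase of thyroid hormone. The named genes were picked as the nearest, so their place below the median was fixed by that choice. The 6 libraries also share their scaling factors, and how common mitochondrial genes are at such distances was not tested.

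Within the tropomyosin family the share of tpm4a was lower in the tbx20-overexpressing libraries. It made up 98.440%, 98.411% and 98.453% of the summed FPKM of the 6 tropomyosin genes in control and 97.054%, 96.517% and 95.223% in the tbx20-overexpressing libraries, means of 98.4 ± 0.0217 and 96.3 ± 0.941 (SD, n = 3 each). The groups did not overlap. Of the 100 genes with a mean CPM of at least 1000, 85% had a log2 fold change below 0. How often an abundant gene's share or ratio to scarce relatives drops in other families was not tested. The ratio of tpm4a to the other 5 genes was 63.0, 61.9 and 63.6 in control and 32.9, 27.7 and 19.9 in the tbx20-overexpressing libraries, a difference of -1.26 on the log2 scale with an exact permutation p of 0.1. That ratio was added after its values were seen. The ratio of tpm4a to tpm1, within each library and so free of its scaling, was 385, 322 and 338 against 236, 121 and 111. It differed by -1.24 on the log2 scale, lower in 3 of 3 pairs, with an exact two-sided permutation p of 0.1, the smallest possible, and 0.433 after adjustment over 13 ratios.

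Other cell types of the apex also express tropomyosins, and in bulk tissue fewer cells of a type cannot be told apart from less RNA per cell. For the counts of calls below, the unadjusted rule called 5.56% of all genes tested lower and 3.27% higher. Summed FPKM of the 12 cardiomyocyte genes without the members was 23803 to 28166 in control and 16630 to 24347 in the tbx20-overexpressing libraries. Of the 12, 3 were called lower (cmlc1, atp2a2a and mybpc3, at -0.95, -0.66 and -0.60) and 0 higher. Among all tested genes with a mean CPM of at least 1000, 28% were called lower. The uncalled genes of the list ran from -0.81 for myl7 to 0.16 for myh6, with nppa, vmhc and actn2b at -0.05, -0.10 and -0.20. Summed FPKM of the 7 epicardial and fibroblast genes was 675 to 970 and 1009 to 2064. Of the 7, 3 were called higher (wt1b, fn1a and tcf21) and 0 lower. The summed CPM of that list overlapped, at 4131 to 7331 and 5653 to 9713. The smooth muscle and pericyte list summed to 276 to 605 and 432 to 1242 FPKM. Of its 5 tested genes acta2 was called higher, at a log2 fold change of 1.64 ± 0.51 (SE), and myh11a, mylka, tagln and cnn1b had values of -0.04, -0.08, 0.13 and 0.29 and were not called. Of the 6 endothelial and endocardial genes pecam1 and cdh5 were called lower. The others, kdrl, fli1a, tie1 and nfatc1, had values of -0.42, -0.008, 0.002 and 0.10 and were not called. That list summed to 857 to 954 and 710 to 780 CPM but overlapped by FPKM, at 129 to 203 and 161 to 204. The slow skeletal smyhc genes stayed at or under 0.04 FPKM in sum. Of the 6 tested genes of the fast skeletal list, ckma and ckmb were called lower, at -1.42 ± 0.32 and -1.84 ± 0.44 (SE). By FPKM ckma ran from 1779 to 2201 in control and 783 to 1114 in the tbx20-overexpressing libraries, far above the rest of the list. That of ckmb ran from 10.71 to 20.9 and 2.54 to 8.26. The others, actn3b, myhz2, mylpfa and atp2a1, stayed at or under 3.05 FPKM in every library. They had values of -0.21, -0.01, 0.27 and 0.32 and were not called. As ckma lay so far above them, its fall is not read here as one of skeletal muscle. The cell type of its reads was not tested. The part of these cell types in the shares of tpm4a and its relatives was not tested.

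**Figure D4:**
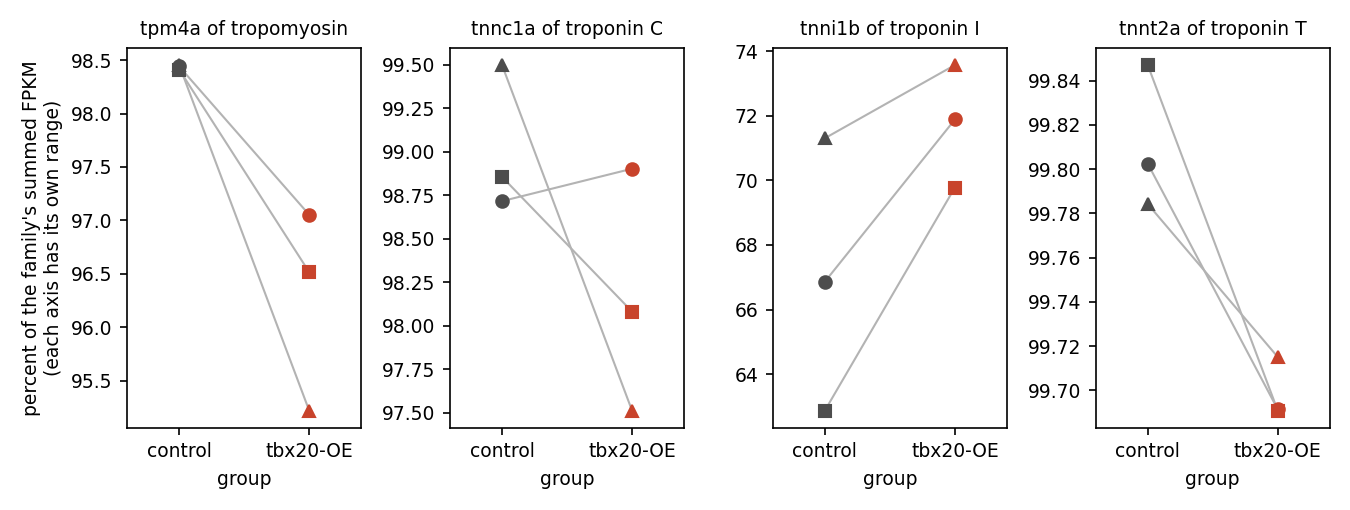
Share of the leading gene in the summed FPKM of each family per library, in percent, with control libraries in grey, tbx20-overexpressing libraries in red, marker shapes for the replicate number, lines joining replicate pairs and a separate range on each axis. The share of tpm4a runs from 98.4% to 98.5% in control and between 95.2% and 97.1% with tbx20 overexpression.

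In troponin T and troponin C a single gene held nearly all of the FPKM in both groups. The share of tnnt2a among 8 troponin T genes was 99.811 ± 0.032% in control and 99.699 ± 0.014% in the tbx20-overexpressing libraries (SD, n = 3 each), and the groups did not overlap. As for tpm4a, how common such a drop is in other families was not tested. That of tnnc1a among 4 troponin C genes was 99.0 ± 0.417% and 98.2 ± 0.699%, with overlap. The ratio of tnnc1b to tnnc1a differed by 0.96 on the log2 scale, with pair values of -0.23, 0.74 and 2.36 and an exact permutation p of 0.3, and it was 0.53 without control replicate 3. The ratio of tnni1c to tnni1b differed by -1.71, lower in 3 of 3 pairs, with an exact permutation p of 0.1 and 0.433 after adjustment, and it was -0.79 without tbx20-overexpressing replicate 3.

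Ratios between the families were compared within each library. Each sum was taken over the members only, so that of troponin I held tnni1b and tnni1c and left out the abundant zgc:101560, described below. The ratio of summed troponin T to summed troponin C differed between the groups by 0.03 on the log2 scale (exact permutation p = 0.9), that of troponin I to troponin C by 0.02 (exact permutation p = 0.9) and that of tropomyosin to troponin C by -0.22 (exact permutation p = 0.3). Within pairs all 3 ratios had both signs. Against myl7, the gene of the cardiac myosin light chain, whose promoter (cmlc2) also drives the activator, troponin T, C and I differed by 0.28, 0.25 and 0.27 and tropomyosin by 0.02 (exact permutation p = 0.3 to 0.9). Troponin T over myl7 was higher in 3 of 3 pairs, by 0.20, 0.44 and 0.20, and so was troponin I, by 0.25, 0.46 and 0.0965, where the smallest p that 3 pairs allow is 0.25 by an exact sign-flip permutation test. Without control replicate 1 the difference of troponin T was 0.0912, that of troponin C 0.0883 and that of troponin I 0.16. With zgc:101560 added to its sum, troponin I over myl7 differed by only 0.17 (exact permutation p = 0.5). The pair values were then 0.15, 0.31 and 0.038. Troponin C was higher in pairs 1 and 2, by 0.60 and 0.44, and lower in pair 3, at -0.30. The ratio of tropomyosin to myl7 was 0.319, 0.411 and 0.458 in control and 0.336, 0.425 and 0.440 in the tbx20-overexpressing libraries, with overlap. Expression of myl7 itself was 10128, 10544 and 7559 FPKM against 8698, 6361 and 5515, a log2 fold change of -0.81 ± 0.37 (SE) that was not called. It passed the unadjusted rule with the replicate block, at -0.82, and in 2 of the 6 fits without 1 library, over which it ranged from -1.10 to -0.59.

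**Figure D5:**
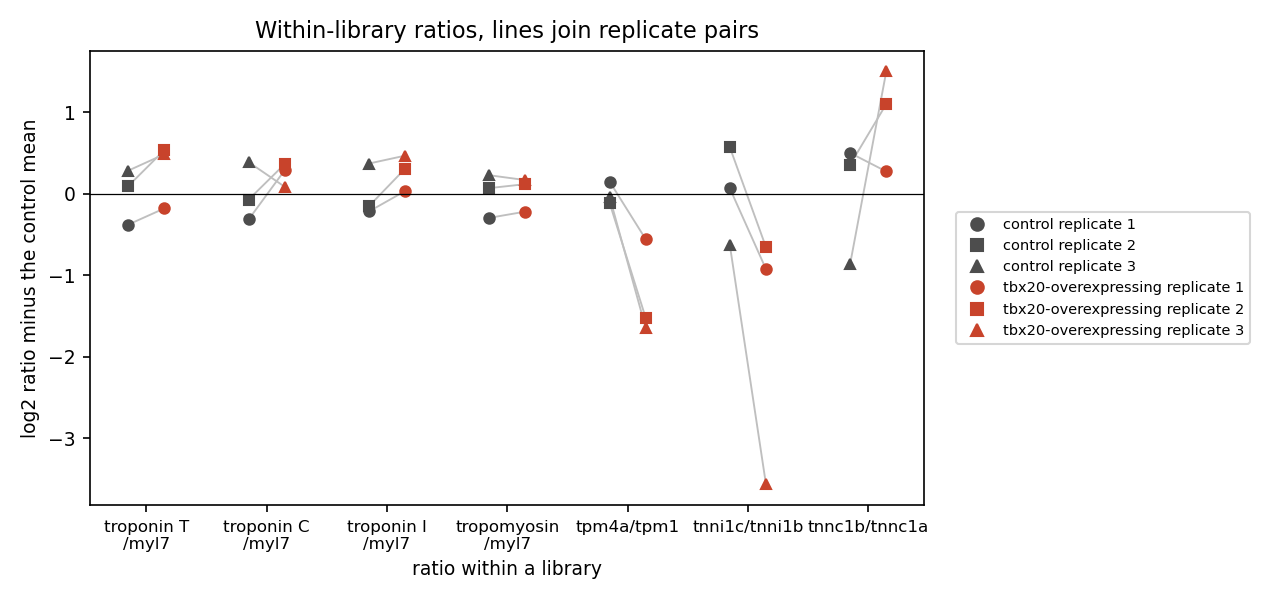
Log2 ratios within each library for the family sums over myl7 and for 3 pairs of members, each minus the mean of the control group, with marker shapes for the replicate number, lines joining replicate pairs, control libraries in grey and tbx20-overexpressing libraries in red. The ratio of tpm4a to tpm1 has a group difference of -1.24 and no overlap, while the ratio of tropomyosin to myl7 has a difference of 0.02.

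The rest of the families held 19 more genes by symbol. Of these, 8 were tested and 1 was called, against 8.83% of all genes tested. The called gene was tpm4b, which rose. Its FPKM was 4.47, 6.00 and 4.97 in control and 6.05, 10.81 and 24.56 in the tbx20-overexpressing libraries. On this scale all 3 lay above all control libraries, with library 3 far above the others. By CPM the groups overlapped, at 15.8, 26.1 and 16.1 in control and 19.3, 32.6 and 61.2 in the tbx20-overexpressing libraries. Its log2 fold change was 0.97 ± 0.41 (SE), adjusted p = 0.519 (edgeR), and the call ended without control replicate 1 (0.86) or 3 (0.86) and without tbx20-overexpressing replicate 2 (1.06) or 3 (0.43). The tropomyosin tpm3 had 32.89, 42.40 and 33.87 FPKM against 58.42, 55.73 and 69.31, without overlap on that scale, and a log2 fold change of 0.36 ± 0.25 (SE). On the FPKM scale 19.7% of genes were higher without overlap. Of the others tested, tpm2, tnnt1, tnnt2b, tnnc2 and tnni3k, a cardiac kinase and no troponin, had log2 fold changes of -0.44 to 0.47 and were not called. Fast-muscle tnnt3b, at 1.297 ± 0.81 (SE) on the log2 scale, was not called, but was with the replicate block, at 1.65, and without control replicate 1, at 2.67. It ran from 0.04 to 0.67 FPKM in control and 0.61 to 1.12 FPKM in the tbx20-overexpressing libraries.

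A second abundant troponin I gene was listed under the symbol zgc:101560, which the gene table names tnni4a. Its FPKM was 314.92, 408.56 and 288.83 in control and 254.93, 248.81 and 194.07 in the tbx20-overexpressing libraries, lower without overlap, as for 2.95% of genes. By CPM it was also lower without overlap, as for 8.27%. It fell by 0.90 on the log2 scale (SE 0.32, adjusted p = 0.422, edgeR), and the call ended without control replicate 2 (-0.60) and without tbx20-overexpressing replicate 3 (-0.70). It made up 32.7 ± 4.11% of the troponin I FPKM in control and 27.7 ± 2.29% in the tbx20-overexpressing libraries (SD, n = 3 each), while tnni1b made up 67.0 ± 4.22% and 71.7 ± 1.90%. The ratio of zgc:101560 to tnni1b differed by -0.33 on the log2 scale, lower in 3 of 3 pairs, with an exact permutation p of 0.2. This gene was added after its values were seen.

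A list of genes around the thin filament gave 1 call among 23 tested genes, against calls for 8.83% of all genes tested. It held actins, tropomodulins, leiomodins, capping proteins, nebulins, the formins fhod3a and fhod3b, cfl2, and genes of the pdlim5 and xirp families. The median log2 fold change of the 23 was -0.11. Cardiac alpha-actin actc1a fell, from a CPM of 13065 ± 4030 to 6445 ± 1963 (SD, n = 3 each), with a log2 fold change of -1.02 ± 0.36 (SE) by edgeR, a call that ended without control replicate 2 or tbx20-overexpressing replicate 2. Its FPKM was 8139, 10074 and 7682 in control and 6421, 5565 and 4330 in the tbx20-overexpressing libraries. The groups did not overlap, lower as for 2.95% of genes, a share that was not counted among abundant genes alone. Control library 2 was highest and tbx20-overexpressing library 3 lowest. By CPM the groups did not overlap either, as for 8.27% of the genes tested and 32% of those with a mean CPM of at least 1000. With the replicate block 5 of the 23 were called, against 14.1% of all genes tested. The leiomodins lmod2a and lmod2b, which act at the pointed ends of thin filaments, and the actins actc1a and acta1a were lower, at -0.67, -0.53, -1.03 and -1.64, and lmod1b was higher at 0.89.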

How the data were processed

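Poly(A) RNA libraries were sequenced on an Illumina HiSeq. Per the labels and the submitters' processing notes, the authors trimmed reads with Trimmomatic 0.30 and aligned them with HISAT2 2.0.1 to GRCz10. The deposited counts are raw reads per gene, and the deposited FPKM values are what the authors derived from them with exonic lengths and library totals: 190206 of 190206 could be recomputed within 0.0051. The counting tool, its use of strand and of reads with several matches are not given in the sources used here. Exonic length came from the deposited table, and 0 columns lacked a sample.

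Counts were tested in R 4.3.3 with edgeR 4.0.16 (TMM, filterByExpr, two-sided quasi-likelihood F test, no covariate) over 15686 genes, with Benjamini-Hochberg adjustment. Genes were called by an unadjusted rule (p under 0.05 before adjustment, log2 fold change beyond 0.5 in size) or at an adjusted p under 0.05. The SE is the absolute fold change divided by the square root of F. Ratios within a library used counts plus 0.5 over exonic length, with exact permutation tests. Alternatives were DESeq2 1.42.0, limma 3.58.1 on log2(FPKM + 1) and log2(FPKM + 0.1), other scalings and filters, a replicate block, and the omission of each library in turn. Total-count scaling with the block, the cardiomyocyte list as reference and the ratios with zgc:101560 or the other tropomyosins were added after seeing the data. The fits were tested on simulated counts that were given no replicate pairs and no difference in composition between the groups, so that test does not cover these.

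The labels number the replicates in both groups. After subtraction of group means, libraries of the same number correlated across 15686 genes at 0.474, 0.419 and 0.511, and unlike numbers at -0.138 or less. That subtraction ties the second set of values to the first, so they are not separate evidence. Pools of the same number were also alike in size. Libraries of the same number were therefore treated as pairs in the replicate block, the pair values and the sign-flip test, which is an inference. The main fit and the exact permutation tests between groups were unpaired. No duplicate libraries were found. Each library is a pool of hearts, so p-values measure the spread between pools. The members and lists were chosen with earlier results of these data known. Named genes were all members, all genes of symbol tnnt, tnnc, tnni or tpm, thin filament genes past the unadjusted rule, tbx20, and the 5 genes nearest in profile to tnnt2a and to tpm4a. Others named were chosen after their values were seen.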

Additional observations from a re-analysis of the deposited data

How the results depend on the processing

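The limits are 3 libraries a group and, for tnni1c and the minor troponin T genes, few counts. The number of all genes called by the unadjusted rule was 1385, against 2100 with total-count scaling, 2213 with the replicate block and 3999 with both together. It was 1750 and 1990 by limma with pseudocounts of 1 and 0.1, and 1097 to 1568 with each library left out. By the adjusted rule it was 0, against 32 without the filter, 239 by DESeq2, 3 by limma on log2(FPKM + 0.1), 84 with the replicate block, 401 with total-count scaling and the block together and 0 to 2 with each library left out. Of the members, 2 were called by the unadjusted rule, against 1 with total-count scaling and 1 with at least 10 counts in every library, which left tnni1c untested, 4 with the replicate block and 0 to 3 with each library left out, with 0 under the adjusted rule in every alternative run. Of the other family genes, 1 was called, against 2 with total-count scaling, 2 without the filter, 3 and 3 by limma with either pseudocount, 2 with the replicate block, 3 with total-count scaling and the block and 0 to 2 with each library left out. Of the thin filament list, 1 was called, against 3 with total-count scaling, 2 and 2 by limma, 5 with the replicate block, 5 with total-count scaling and the block and 0 to 5 with each library left out.

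The share of calls that were higher was 37.0% with TMM and 87.8% with total-count scaling. By limma on FPKM it was 85.0% and 85.2%, with a median log2 fold change of 0.27 and 0.37 over all genes tested. Among the members the block changed the calls of tnnt2a and tnni1b only. DESeq2 called tnni1b too (-0.55). With its 2 pseudocounts, limma called tnnc1b (0.70 and 0.72) and tpm1 (0.74 and 0.78) higher. So it did for 1488 and 1695 of the 15686 genes tested. Limma did not call tpm4a (-0.45 and -0.45).

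With a library left out, the value of tnnc1b ranged from -0.11, without control replicate 3, to 0.61. The log2 ratio of tnnt2c to tnnt2a ranged from -0.53 to 0.96, that of troponin T to troponin C from -0.15 to 0.29, that of troponin I to troponin C from -0.16 to 0.16, that of tropomyosin to myl7 from -0.13 to 0.14 and that of tropomyosin to the cardiomyocyte list from -0.14 to 0.0229. The cause of these changes was not tested.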

Other observations

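A further troponin I gene, tnni1d, stood apart in 1 library. It had 2, 10 and 0 counts in control and 7, 3 and 181 in the tbx20-overexpressing libraries, or 8.13 FPKM in tbx20-overexpressing library 3 against at most 0.33 FPKM in the other 5. It did not pass the filter on low counts and was not tested. The fast-muscle troponin I genes tnni2a.2 and tnni2a.4 were listed at 0 in all 6 libraries. In the gene order of the GRCz12tu assembly, tnnt2b and tnni1b lie next to each other on chromosome 6, with 0 protein-coding genes between them, while their FPKM differed from 1.56 to 3.30 for tnnt2b to 564 to 722 for tnni1b. Likewise 1 protein-coding gene lies between tnnt2e and tnni4a on chromosome 4, of which tnnt2e was at or under 1.06 FPKM and tnni4a (zgc:101560) at 194 to 409 FPKM.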
